A study of Mus musculus with 4 samples.

Results

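The DNA replication machinery is described here by 42 genes, fixed as a list of names: they license origins, open and copy DNA at the fork, supply nucleotides, start S phase and copy DNA methylation. All 42 were found by symbol among the 53465 genes in the count files, and all 42 passed the filter on low counts. The RNA came from sorted Fgf10-positive cells of the submandibular gland, a salivary gland, in C57BL/6J mice carrying Fgf10CreERT2 and Rosa26Tomato fl/fl. In these mice the Fgf10 gene drives a Cre that tamoxifen switches on, and Cre turns on a red fluorescent reporter, so the sorted cells are those that used Fgf10 when tamoxifen was given and the cells derived from them. Adult cells were collected at P60 from mice given tamoxifen at P57 and P58, and pup cells at P7 from mice given it at P4 and P5, where P stands for postnatal day. Every mouse carried the same alleles, and the tamoxifen dose was 0.1 mg per g body weight for all. Each age has 2 libraries. Since separate animals are not stated for them, any p-value reflects only the spread between those libraries, which may be technical. In bulk RNA of this kind, fewer dividing cells and less replication RNA per cell cannot be told apart.

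A chromosome is copied once per cell cycle. In G1 the origin recognition complex, with Cdc6 and Cdt1, loads the MCM2 to MCM7 ring onto DNA; in S phase Cdc45 and the GINS complex join the ring to make the active helicase, and polymerases follow behind it. Many of these genes are switched on by E2F transcription factors as a cell commits to divide and are held down in resting cells, while others also serve DNA repair and are used in cells that do not divide.

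Gene counts per library came to 13791730 and 16585518 in adult libraries and 7289792 and 21490686 in pup replicates 1 and 2. Pup replicate 1 stood apart: 76.7% of its tallied reads fell outside genes, against 9.70% to 10.6% in the other libraries, and 96.5% of 1134 olfactory receptor genes, which are best known from the nose, had a count there, against 1.59% to 7.67% in the others. The background of that library was estimated from olfactory receptor counts per kb of exon. It is given beside the values of some genes only, and genes without it can also hold a large share. Over the 42 genes, this background would account for 2515 of 8595 counts in pup replicate 1 (29.3%), against 24.2% over all genes. Levels are given in CPM (TMM-scaled, a unit that corrects for library size and composition). Fgf10 itself was at 195 and 40.3 CPM in adult libraries, against 27.3 and 24.1 CPM in pup libraries. The libraries also differed in markers of several cell types. The 9 ionocyte markers summed to 7925 and 5025 CPM in adult libraries against 171 and 218 CPM in pup libraries, the 8 epithelial markers to 8220 and 12228 CPM in adults against 2743 and 6462 CPM in pups, and the 8 fibroblast markers to 1256 and 22439 CPM in adults against 26104 and 59715 CPM in pups. Both adults lay above both pups for 6 of the 8 epithelial markers, against 21.8% of all genes tested. Krt14 went the other way, at 736 and 253 CPM in adults against 1257 and 2849 CPM in pups, and Krt5 overlapped. The 6 endothelial markers summed to 0.08 and 788 CPM in adult libraries, with 5 of 6 at 0 in adult replicate 1, against 112 and 6.25 CPM in pup libraries. The 8 leukocyte, 6 erythroid, 6 skeletal muscle and 6 glial and neuronal markers summed to at most 56.2 CPM per list in adult libraries and at most 184 CPM in pup libraries. No ionocyte, epithelial or fibroblast marker was at 0 in any library. The part of these differences in the results below was not tested.

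The promoters of 34 of the 42 genes are in the RefSeq table for GRCm38.p6, as windows of 300 bases that run from 250 before to 50 after a transcription start. They are shown because many of these genes are classic E2F targets. The letters searched for E2F were TTTCGCGC, TTTGGCGC, TTTCCCGC and TTTGCCGC, and for the CCAAT box CCAAT, each on both strands and with overlapping matches counted. At least 1 of the E2F words was found for 14 of the 34 genes (41.2%), against 2.60% of the 27025 genes with a promoter in the table; CCAAT was in 64.3% of the 42 windows of these genes, against 37.4% of all 32851 windows. Shown are Mcm5 and Mcm6, which hold E2F words and were lower in adults, Mcm10, which holds none and had no count in adults, and 1 of 3 windows of Dnmt1, which holds E2F words and was level between the ages. Capitals mark the E2F and CCAAT matches. In Mcm5 and Mcm6 a pair of E2F matches on opposite strands overlap in 1 run of capitals, and in Dnmt1 CCAAT overlaps its reverse complement.
Mcm5 (chr8:75109259-75109558, plus strand): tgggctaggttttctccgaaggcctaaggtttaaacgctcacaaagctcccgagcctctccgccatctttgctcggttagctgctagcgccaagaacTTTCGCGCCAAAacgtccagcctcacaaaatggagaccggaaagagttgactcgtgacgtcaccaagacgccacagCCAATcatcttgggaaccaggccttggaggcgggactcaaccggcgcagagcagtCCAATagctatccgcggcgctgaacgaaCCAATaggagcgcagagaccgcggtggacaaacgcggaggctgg
Mcm6 (chr1:128359656-128359955, minus strand): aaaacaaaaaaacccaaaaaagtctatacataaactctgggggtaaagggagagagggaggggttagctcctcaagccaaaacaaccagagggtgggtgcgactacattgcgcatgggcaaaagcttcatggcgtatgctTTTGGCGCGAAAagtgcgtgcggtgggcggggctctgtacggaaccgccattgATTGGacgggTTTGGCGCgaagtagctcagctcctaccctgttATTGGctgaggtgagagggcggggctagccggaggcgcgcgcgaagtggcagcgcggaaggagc
Mcm10 (chr2:5012742-5013041, minus strand): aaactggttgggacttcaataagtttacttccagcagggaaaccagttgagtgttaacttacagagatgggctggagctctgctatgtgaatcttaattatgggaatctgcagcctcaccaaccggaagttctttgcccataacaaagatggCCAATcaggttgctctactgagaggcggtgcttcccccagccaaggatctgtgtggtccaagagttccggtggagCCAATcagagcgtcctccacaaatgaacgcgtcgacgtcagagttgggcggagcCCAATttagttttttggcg
Dnmt1 (chr9:20952574-20952873, minus strand): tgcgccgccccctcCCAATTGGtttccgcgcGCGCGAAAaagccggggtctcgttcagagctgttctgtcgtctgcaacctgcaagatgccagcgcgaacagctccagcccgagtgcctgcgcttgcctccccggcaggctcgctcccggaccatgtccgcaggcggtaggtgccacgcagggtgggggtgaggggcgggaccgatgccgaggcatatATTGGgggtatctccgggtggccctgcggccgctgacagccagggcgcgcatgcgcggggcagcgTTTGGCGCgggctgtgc
Genes with and without an E2F word covered overlapping ranges. The median fitted log2 fold change (adult over pup) stood at -1.31 (range -4.07 to 0.73) for the 14 genes with a match and -0.96 (range -11.05 to 0.42) for the 20 without one. Rrm2, Tk1 and Tyms, all far lower in adults, had no E2F word in these windows, while Pold1 and Dnmt1, both at positive values (Dnmt1 at -0.057 with library totals), had one or more. No match says only that these letters are absent from the window. The Mcm10 window ends in TTTGGCG, which lacks only the last letter of TTTGGCGC, so a match across its edge would be missed.

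The design sets adult Fgf10-positive cells against those of pups. Most of the 42 genes stood lower in adults, but unevenly: a group of S phase genes was close to nothing in adults, and another group was at pup levels. Both adults lay below both pups for 28 of the 42 genes (66.7%), against 27.1% of the 16320 genes tested, and for no member did both adults lie above both pups, against 21.8%. After the expected background was taken off pup replicate 1, the number below was 25, against 23.4% of all genes. Log2 fold changes, adult over pup, were negative for 36 of 42, against 57.1% of all genes, positive for 6, against 42.9%, and below -2 for 16 of 42 (38.1%), against 18.1%. The median over the 42 was -1.28, with the gene at 0 counts in adults taken at its bound or at its fitted value, beside -0.24 over all genes tested. Among the 42 the values ran from a fitted -11.05 for Mcm10, which had no adult count, to 0.73 for Pold1.

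No single gene passed the main test. By edgeR's quasi-likelihood test with Benjamini-Hochberg adjustment over 16320 genes, 0 of the 42 were called in either direction, and 0% of all genes were called lower or higher. At an unadjusted p under 0.05, edgeR had 9 of the 42 lower (21.4%, against 8.49% of all genes) and 0 higher (against 5.99%). DESeq2 called 7 of the 42 lower (16.7%, against 5.28%) and 0 higher (against 3.74%): Mcm10, Pole, Prim1, Rrm2, Tk1, Tyms and Uhrf1. Limma-voom called 0, as it did over all genes. Without adult replicate 2, edgeR called 8 lower (Cdc6, E2f1, Mcm10, Mcm5, Pole, Rrm2, Tk1 and Uhrf1), where 4.49% of all genes were called lower; without adult replicate 1 it called Mcm10 and Rrm2, where 0.987% were. None of the 42 was called higher in these fits, where 1.51% and 1.4% of all genes were, and without either pup library 0 were called. With the background of pup replicate 1 subtracted, or with 10 counts asked of every library of an age, edgeR again called 0 of the 42, beside 0.0123% and 0.0132% of all genes lower and 0.0919% and 0.0856% higher. With 2 libraries per age, the smallest two-sided p of an exact permutation test on 1 gene is 0.333.

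**Figure D1:**
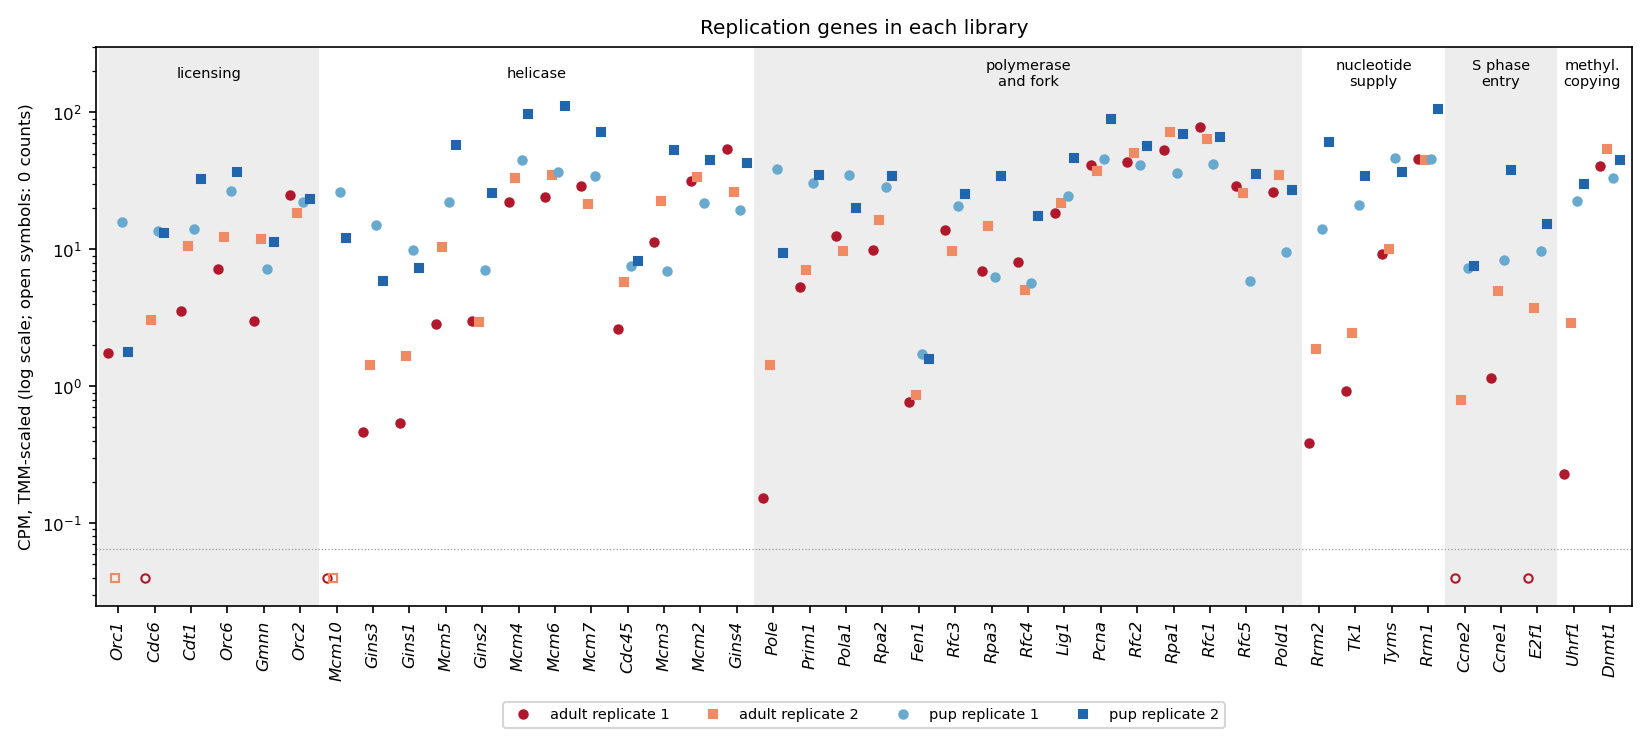
TMM-scaled CPM (log axis) of each of the 42 genes in adult replicates 1 and 2 (red and orange) and pup replicates 1 and 2 (light and dark blue), grouped by step and ordered within a step by log2 fold change; open symbols are libraries with 0 counts. The adults sit far below the pups for genes such as Rrm2 (0.38 and 1.87 CPM in adults against 14.1 and 60.4 CPM in pups) and among them for genes such as Rfc1 and Dnmt1.

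Of the 6 origin licensing genes, edgeR and DESeq2 called 0, and at an unadjusted p under 0.05 edgeR had 1 lower (16.7%, against 8.49% of all genes). Both adults lay below both pups for Cdc6, Cdt1, Orc1 and Orc6, and the groups overlapped for Gmnn and Orc2. Summed over the 6 genes, licensing RNA came to 40.5 and 56.1 CPM in adult libraries, against 99.7 and 119 CPM in pup libraries. Cdc6, the loading factor that is made anew in each cycle, had 0 and 42 counts in adult libraries (0 and 3.02 CPM), against 126 and 252 counts in pup libraries (13.6 and 13.2 CPM), with 73.4 of the 126 expected from background. A count of 0 allows up to 3 counts, or 0.23 CPM in adult replicate 1, which covers counting error only. The adults lay below the pups but also differed from each other. The log2 fold change was -3.14 ± 2.14 (SE of the edgeR fit, 2 libraries per age) and -2.20 without adult replicate 1. Cdt1, which works with Cdc6, stood at 3.53 and 10.6 CPM in adult libraries and 14.2 and 32.7 CPM in pup libraries (log2 fold change -1.73 ± 0.97), again with the groups apart. Gmnn, the gene for geminin, which binds Cdt1 and blocks a further round of loading, stood at 2.99 and 11.9 CPM in adult libraries and 7.14 and 11.3 CPM in pup libraries, so that the groups overlapped.

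The 3 origin recognition subunits on the list differed. Orc1, the subunit that is unstable outside G1 in human cells, had 23 and 0 counts in adult libraries, against 147 and 34 counts in pup libraries, with 48.9 of the 147 expected from background. Scaled, these were 1.76 and 0 CPM, against 15.9 and 1.79 CPM, so adult replicate 1 and pup replicate 2 were nearly level, and without pup replicate 1 the log2 fold change was -1.01 in place of -3.31 ± 2.46. Orc2, a core subunit, was level between ages, at 25.1 and 18.3 CPM in adult libraries and 22.0 and 23.5 CPM in pup libraries (log2 fold change -0.07 ± 0.60); 29.8% of its exon length is shared with Nif3l1 on the opposite strand. Orc6, the smallest subunit, stood at 7.13 and 12.3 CPM in adult libraries and 26.8 and 36.9 CPM in pup libraries, with both adults below both pups and a log2 fold change of -1.71 ± 0.69.

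The helicase ring, MCM2 to MCM7, differed by subunit; the 6 proteins form a ring with 1 copy of each. Together their RNAs came to 121 and 156 CPM in adult libraries, against 167 and 436 CPM in pup libraries. Mcm5 showed the widest gap, at 2.84 and 10.4 CPM in adult libraries and 22.3 and 57.9 CPM in pup libraries (log2 fold change -2.60 ± 0.91). Mcm4 stood at 22.3 and 33.2 CPM in adult libraries and 44.6 and 97.8 CPM in pup libraries. Mcm6, at 23.9 and 35.0 CPM in adults against 36.6 and 111 CPM in pups, and Mcm7, at 29.0 and 21.2 CPM in adults against 34.5 and 71.3 CPM in pups, also had both adults below both pups. The log2 fold changes of Mcm4, Mcm6 and Mcm7 lay between -1.36 and -1.08. Mcm2 was level, at 31.4 and 33.6 CPM in adult libraries and 21.6 and 44.6 CPM in pup libraries (log2 fold change -0.03 ± 0.57). Background would give 97.7 of the 200 Mcm2 counts in pup replicate 1. Mcm3 stood at 11.3 and 22.4 CPM in adult libraries and 6.93 and 52.9 CPM in pup libraries, where its 64 counts in pup replicate 1 compare with 52.7 expected from background; its log2 fold change was -1.65 without that library and 1.28 without pup replicate 2.

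Among the factors that turn the loaded ring into a moving helicase, Mcm10, Gins1 and Gins3 had both adults below both pups with or without the background of pup replicate 1, and of these DESeq2 called Mcm10 alone. Gins2 and Cdc45 overlapped once background was taken off, and Gins4 overlapped as counted. Mcm10, which is needed to start unwinding (ENSMUSG00000026669, chromosome 2, 4989714 to 5012791 in GRCm38), had 0 counts in both adults, against 244 and 230 counts in pup libraries. Of the 244, 108 were expected from background, and with them taken off Mcm10 was at least 116-fold lower in adult, against a floor of 3 counts over the adult pair. By DESeq2 it was called; by edgeR its adjusted p was 0.202. Gins1 and Gins3 were also sparse in adults, Gins1 with 7 and 23 counts there against 91 and 139 in pup libraries, and Gins3 with 6 and 20 counts in adults against 140 and 111 in pups. Their log2 fold changes were -2.96 ± 1.63 and -3.45 ± 1.64, and the groups did not overlap. Gins2 stood at 2.99 and 2.95 CPM in adult libraries and 7.03 and 25.6 CPM in pup libraries, but background would give 57.5 of its 65 counts in pup replicate 1 and 67.3% of its exon length is shared with Gse1 on the opposite strand. Gins4 (chromosome 8, 23226616 to 23237659) stood at 54.0 and 26.3 CPM in adult libraries and 19.3 and 42.5 CPM in pup libraries. It was thus the only GINS gene with a positive log2 fold change (0.38 ± 0.64), which turned to -0.26 without adult replicate 1 and to -0.08 without pup replicate 1. Cdc45, the third part of the helicase, stood at 2.61 and 5.76 CPM in adult libraries and 7.58 and 8.20 CPM in pup libraries, with 49.2 of 70 counts in pup replicate 1 expected from background.

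Per kb of exon, where levels of different genes can be set side by side, Gins4 was the highest of the 42 in both adults, at 40.1 and 19.5 CPM per kb, against 14.3 and 31.5 in pup libraries. Pcna followed at 17.1 and 15.7 CPM per kb in adult libraries, against 19.0 and 37.0 in pup libraries, where it was the highest. Gins1, Gins2 and Gins3, the partners of Gins4 in a complex with 1 copy of each, were at 0.17 to 1.09 CPM per kb in adult libraries and 1.72 to 6.50 in pup libraries. Exon lengths here are unions over all annotated transcripts, so a gene with a long rare exon reads too low.

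**Figure D2:**
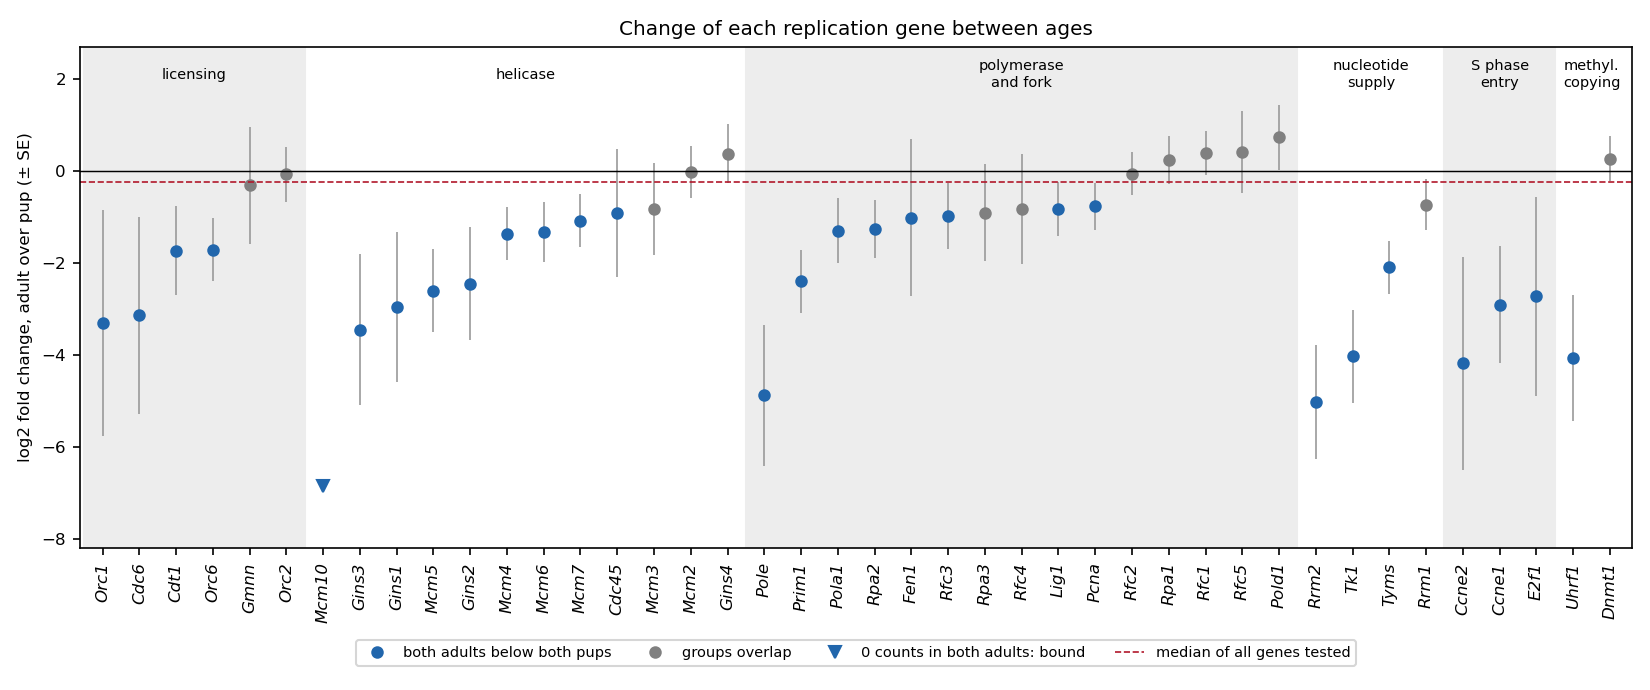
Fitted log2 fold change of adult over pup with its standard error for each of the 42 genes by step; blue points have both adults below both pups, grey points overlap, the triangle is the bound for Mcm10, which had 0 counts in both adults, and the dashed line is the median of all genes tested (-0.24). No member has both adults above both pups, and among the genes shown the polymerase and fork group lies nearest to the line.

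The enzymes and clamps of the fork split into a few genes with low adult counts and a larger group near pup levels. This step had the median nearest 0 of the 6 steps, -0.82 over its 15 listed genes. The 22 further fork genes described below had a median of -1.40, further from 0 than the -0.52 of 10 further nucleotide genes. The order of these steps thus depends on which genes are listed. Both adults lay below both pups for 8 of 15 (53.3%, against 27.1% of all genes). With background taken off pup replicate 1 they did for 7 (46.7%, against 23.4%). The summed RNA of this step was 346 and 372 CPM in adult libraries, against 371 and 568 CPM in pup libraries. Pole, the catalytic subunit of the leading strand polymerase (chromosome 5, 110286306 to 110337474), had 2 and 20 counts in adult libraries, against 354 and 178 counts in pup libraries, of which 157 of the 354 were expected from background. Its log2 fold change was -4.88 ± 1.54, called by DESeq2 (adjusted p = 0.00685) and not by edgeR (adjusted p = 0.284). Pold1, the catalytic subunit of the lagging strand polymerase, stood at 26.1 and 34.6 CPM in adult libraries and 9.52 and 26.9 CPM in pup libraries, with 68.2 of 88 counts in pup replicate 1 expected from background (log2 fold change 0.73 ± 0.71, and 0.17 without that library). The groups overlapped for Pold1 and were far apart for Pole.

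The genes that start each new strand had both adults below both pups, and DESeq2 called Prim1 of the pair. Prim1, the primase that lays the RNA primer, was at 5.29 and 7.06 CPM in adult libraries and 30.4 and 34.9 CPM in pup libraries. It averaged 6.17 ± 1.25 CPM in adult libraries and 32.7 ± 3.20 CPM in pup libraries (SD, n = 2 each), with little spread in either age. Its log2 fold change of -2.40 ± 0.69 was called by DESeq2 (adjusted p = 0.013) and not by edgeR (adjusted p = 0.272). Pola1, the polymerase that extends the primer, stood at 12.5 and 9.79 CPM in adult libraries and 34.8 and 20.1 CPM in pup libraries (log2 fold change -1.30 ± 0.70).

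Pcna, the sliding clamp, stood at 41.1 and 37.6 CPM in adult libraries and 45.6 and 88.7 CPM in pup libraries, with a log2 fold change of -0.77 ± 0.52, a smaller gap than for most helicase genes of the list, whose median was -1.34. Rfc1 to Rfc5 encode the loader that opens this clamp, and their median log2 fold change was -0.06. Rfc1, the large subunit, stood at 77.7 and 63.9 CPM in adult libraries and 42.2 and 66.0 CPM in pup libraries. Rfc2 was level, averaging 46.9 ± 4.70 CPM in adult libraries and 49.0 ± 11.3 CPM in pup libraries (SD, n = 2 each). Rfc5 stood at 29.2 and 25.8 CPM in adult libraries and 5.84 and 35.3 CPM in pup libraries, but its 54 counts in pup replicate 1 were below the 65.6 expected from background, and without that library the log2 fold change was -0.36. Rfc4 was at 8.12 and 5.04 CPM in adults against 5.63 and 17.6 CPM in pups, with overlapping groups, and only Rfc3 had both adults below both pups, at 13.7 and 9.79 CPM in adults against 20.6 and 25.5 CPM in pups.

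The 3 subunits of RPA, which coats single-stranded DNA in replication and repair, also differed. Rpa1, the large subunit, stood at 52.6 and 72.4 CPM in adult libraries and 35.8 and 69.7 CPM in pup libraries (log2 fold change 0.24 ± 0.53). That value turned to -0.029 with library totals, -0.0045 without adult replicate 2 and -0.16 without pup replicate 1. Rpa2 had both adults below both pups, at 9.96 and 16.4 CPM in adults against 28.7 and 34.3 CPM in pups, and Rpa3 overlapped, at 6.90 and 14.9 CPM in adults against 6.28 and 34.5 CPM in pups. Lig1, the ligase that seals Okazaki fragments, stood at 18.5 and 21.7 CPM in adult libraries and 24.7 and 46.3 CPM in pup libraries (log2 fold change -0.82 ± 0.59). Fen1, the flap nuclease of the same step, had only 10 and 12 counts in adult libraries and 16 and 30 in pup libraries; 84.2% of its exon length is shared with genes on the opposite strand, so reads there may have been set aside as ambiguous, and 34.0 counts were expected from background in pup replicate 1. No direction can be read for Fen1.

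Nucleotide supply, with 4 listed genes, had the lowest median of the 6 steps. The 4 genes summed to 56.1 and 59.3 CPM in adult libraries, against 127 and 236 CPM in pup libraries, and had a median log2 fold change of -3.07. Rrm2 (chromosome 12, 24708241 to 24714146), the S phase subunit of ribonucleotide reductase, which makes deoxynucleotides, had 5 and 26 counts in adult libraries, against 130 and 1150 counts in pup libraries, with 38.9 of the 130 expected from background. Its log2 fold change was -5.03 ± 1.24 (edgeR adjusted p = 0.241, DESeq2 adjusted p = 0.00063). Rrm1, the large subunit of the same enzyme, stood at 45.6 and 44.9 CPM in adult libraries and 45.6 and 105 CPM in pup libraries (log2 fold change -0.73 ± 0.55), and adult replicate 1 and pup replicate 1 were level. Tk1, the S phase thymidine kinase, had 12 and 34 counts in adult libraries, against 194 and 656 counts in pup libraries (log2 fold change -4.03 ± 1.01), with 73.0 of the 194 expected from background. Tyms, which makes thymidylate, was at 9.20 and 10.1 CPM in adult libraries and 46.2 and 36.4 CPM in pup libraries. It averaged 9.64 ± 0.62 CPM in adult libraries and 41.3 ± 6.93 CPM in pup libraries (SD, n = 2 each), a log2 fold change of -2.10 ± 0.58 with both pairs close together. DESeq2 called Rrm2, Tk1 and Tyms lower (75% of the step, against 5.28% of all genes). Both adults lay below both pups for these 3 of 4 genes (75%, against 27.1% of all genes). The 10 further nucleotide genes described below had a median log2 fold change of -0.52. Both adults lay below both pups for 3 of those 10 genes and above both pups for 3. The rank of nucleotide supply thus holds for the 4 listed genes only.

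The genes that open S phase were all sparse in adults, and most of all in adult replicate 1, but neither edgeR nor DESeq2 called any of the 3. Cyclin E, which works with Cdk2 to start replication, is encoded by Ccne1 and Ccne2. Ccne1 had 15 and 69 counts in adult libraries, against 77 and 717 in pup libraries, and Ccne2 had 0 and 11 in adults, against 67 and 143 in pups. E2f1, an activating E2F, had 0 and 52 counts in adult libraries, against 90 and 289 in pup libraries. Together the 3 genes summed to 1.15 and 9.50 CPM in adult libraries, against 25.3 and 60.4 CPM in pup libraries. In pup replicate 1, 55.9% of their counts were expected from background, the highest share of any step. Log2 fold changes were -2.91 ± 1.27 for Ccne1, -4.19 ± 2.32 for Ccne2 and -2.73 ± 2.17 for E2f1, and that of E2f1 was -1.77 without adult replicate 1.

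The pair that copies DNA methylation onto new strands differed. Dnmt1, the maintenance methyltransferase, stood at 40.4 and 53.7 CPM in adult libraries and 32.9 and 45.0 CPM in pup libraries (log2 fold change 0.27 ± 0.48, and -0.057 with library totals). Uhrf1, which recognises hemimethylated DNA and brings Dnmt1 to it, had 3 and 40 counts in adult libraries, against 208 and 572 counts in pup libraries, with 59.8 of the 208 expected from background. Its log2 fold change was -4.07 ± 1.36 (edgeR adjusted p = 0.284, DESeq2 adjusted p = 0.019). Dnmt1 levels overlapped between the ages, and those of Uhrf1 did not.

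Ratios between partners within 1 library do not depend on how libraries are scaled. The 12 pairs were chosen after the values were seen, so their direction is not separate support for the unevenness, and they are a description. The ratio of Rrm2 to Rrm1, in counts per kb of exon, was 0.033 and 0.166 in adult libraries and 1.23 and 2.29 in pup libraries. Uhrf1 to Dnmt1 was 0.0099 and 0.093 in adult libraries, against 1.19 and 1.16 in pup libraries. Mcm5 to Mcm2 was 0.157 and 0.537 in adults, against 1.79 and 2.26 in pups, and Prim1 to Rpa1 0.145 and 0.141 in adults, against 1.22 and 0.723 in pups. In every one of these 4 pairs both adults were below both pups by a wide margin, and the pup ratio with background taken off pup replicate 1 was also above 1 for that library. Gins1 to Gins4 was 0.0088 and 0.056 in adult libraries and 0.455 and 0.153 in pup libraries. Orc1 to Orc2 was 0.078 and 0 in adult libraries and 0.803 and 0.084 in pup libraries, and so rested on pup replicate 1. Gins2 to Gins4 in pup replicate 1 was 0.120 as counted and 0.015 with background taken off, which lies below both adults.

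**Figure D3:**
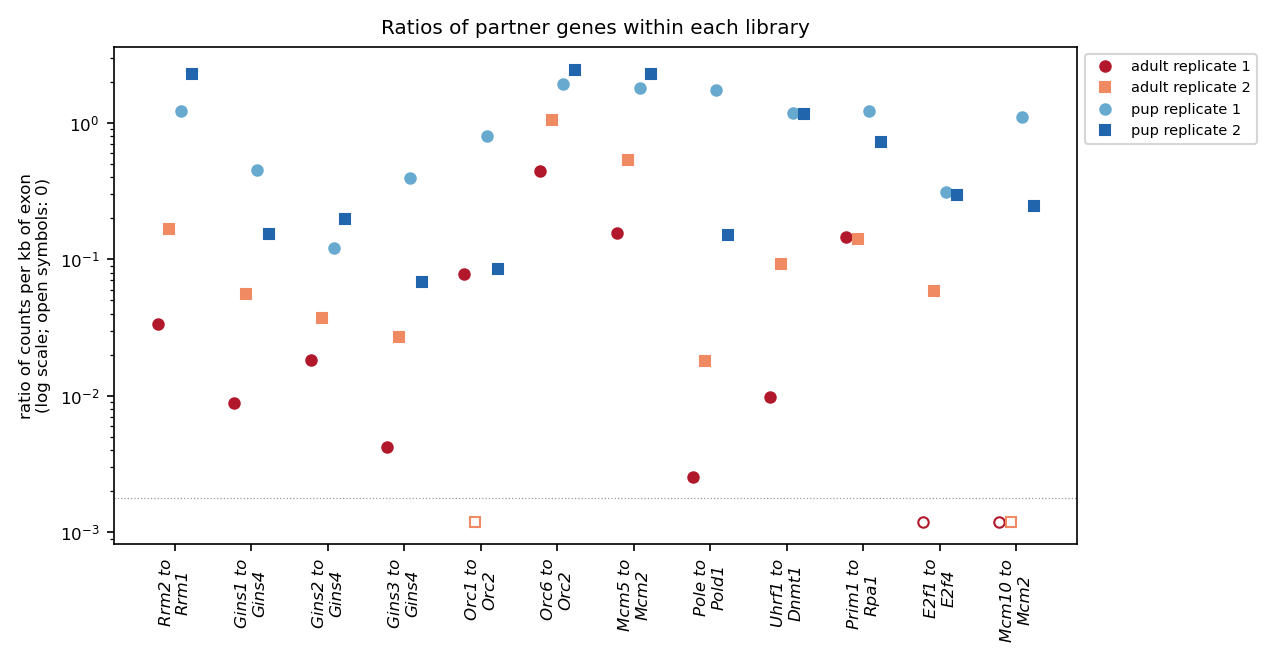
Ratio of counts per kb of exon (log axis) for 12 pairs of partner genes within each of the 4 libraries, with adults in red and orange and pups in blue; open symbols are ratios of 0. Rrm2 to Rrm1 sits at 0.033 and 0.166 in adult libraries and above 1 in both pups.

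Background in pup replicate 1 bore on the genes unequally. Over the 42, observed counts there were a median 3.41 times the expected background. Fen1 and Rfc5 were at or below it, and 8 genes were under 2 times, among them Mcm3, Gins2, Ccne2, Cdc45, Pold1 and Cdc6. Counts of 14 genes were more than 4 times the expectation, from which Pcna stood out at 12.5 times. The expectation is an average rate and need not hold for any single gene.

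**Figure D4:**
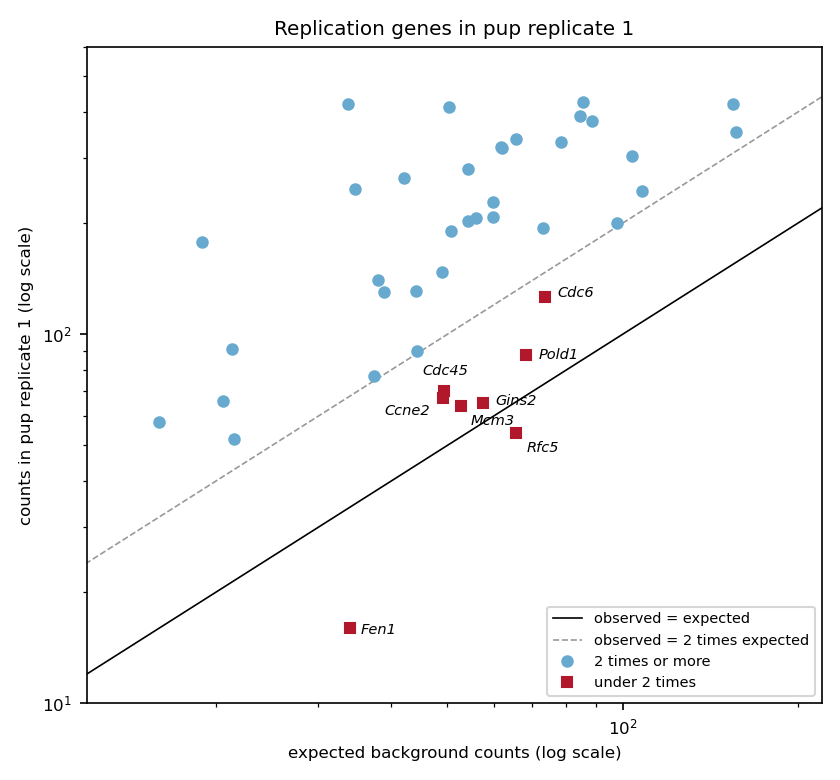
Counts of each of the 42 genes in pup replicate 1 against the counts expected there from background (both axes log); red squares are the 8 genes under 2 times the expectation, and the lines mark 1 and 2 times. Fen1 and Rfc5 lie below the line of equality.

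Within the adult pair, 29 of the 42 genes were higher in adult replicate 2 and 12 in adult replicate 1, with Mcm10 at 0 in both. Over all genes tested the numbers were 8552 and 7182. The fibroblast and endothelial markers were higher in adult replicate 2 as well, for 8 of 8 and 6 of 6 markers, and the ionocyte markers were higher in adult replicate 1 for 8 of 9; their part was not tested. Among genes sparse in adults, Uhrf1 stood at 0.23 and 2.88 CPM, Pole at 0.15 and 1.44 CPM and Rrm2 at 0.38 and 1.87 CPM in adult replicates 1 and 2. Of 20 mitosis genes, by contrast, 12 were higher in adult replicate 1 and 4 in adult replicate 2, and they summed to 58.8 and 15.8 CPM in adult libraries, against 408 and 680 CPM in pup libraries. All 20 had both adults below both pups (27.1% of all genes did), and 16 of 20 with background taken off pup replicate 1 (23.4% of all genes did). Their median log2 fold change was -4.69, further from 0 than the -1.28 of the 42 replication genes, and the difference was not tested. Of the 20, edgeR called 0, had 14 lower at an unadjusted p under 0.05 (8.49% of all genes), and DESeq2 called 13 lower (5.28% of all genes). By the naming rule, Top2a, which untangles DNA strands, stood at 5.90 and 2.23 CPM in adult libraries and 63.0 and 62.2 CPM in pup libraries, and Cdk1, the mitotic kinase, at 3.30 and 0.07 CPM in adults against 26.5 and 83.2 CPM in pups. Cenpf and Kif11, of the kinetochore and the spindle, had 0 counts in adult libraries; the bounds were at least 253-fold lower in adult for Cenpf and 160-fold for Kif11, with background taken off; that of Cenpf was 86.8-fold without pup replicate 2.

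Another 66 replication genes outside the 42 also held both genes without adult counts and genes at pup levels. Both adults lay below both pups for 32 of 66 (48.5%, against 27.1% of all genes) and above for 12 (18.2%, against 21.8%), and the median log2 fold change was -0.68. By edgeR 0 passed; at an unadjusted p under 0.05 there were 10 lower (15.2%, against 8.49%) and 1 higher (against 5.99%), and DESeq2 called 12 lower (18.2%, against 5.28%) and 0 higher (against 3.74%). By list, the median log2 fold change was -1.90 for chromatin assembly genes, -1.40 for fork genes and -0.98 for licensing and firing genes. It was -0.62 for E2F and pocket protein genes and -0.52 for nucleotide genes. Among 12 licensing and firing genes, Cdc7, the kinase that fires origins, and Ticrr, which helps load Cdc45, had 0 counts in both adults. Cdc7 had 157 and 112 counts in pup libraries, and Ticrr 302 and 215, and they were at least 66.8-fold and 120-fold lower in adult with background taken off. Orc4, a core origin subunit, stood at 52.3 and 45.4 CPM in adult libraries and 30.7 and 44.8 CPM in pup libraries, and Mcmbp, an MCM-binding protein, at 62.2 and 75.1 CPM in adults against 68.2 and 90.7 CPM in pups.

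Among 22 further fork genes, Exo1 and Dna2, nucleases of replication and repair, had 0 counts in both adults. Exo1 had 242 and 45 counts in pup libraries and Dna2 142 and 20, of which 118 of the 242 and 82.5 of the 142 were expected from background. With these taken off, Exo1 was at least 53.6-fold and Dna2 at least 25.2-fold lower in adult. These bounds turned on the pup library: without pup replicate 1 they were 21.2-fold for Exo1 and 9.44-fold for Dna2, and without pup replicate 2 they were 120-fold and 57.8-fold. Top1, a topoisomerase, stood at 81.5 and 127 CPM in adult libraries and 159 and 176 CPM in pup libraries. Pole4, a small accessory subunit of the polymerase whose catalytic gene Pole was nearly without counts, stood at 80.8 and 62.3 CPM in adult libraries and 22.5 and 62.3 CPM in pup libraries. Adult replicate 2 and pup replicate 2 were level for Pole4.

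The other lists held genes at higher adult levels as well. Of 10 further nucleotide genes, Dck, a salvage kinase, stood at 2.45 and 5.62 CPM in adults against 12.2 and 27.3 CPM in pups, with 53.1 of its 113 counts in pup replicate 1 expected from background. Dctd, a deaminase, stood at 0 and 3.02 CPM in adults against 5.63 and 12.5 CPM in pups, but with 47.9 of 52 counts in pup replicate 1 expected from background that library is left with 0.59 CPM, below adult replicate 2. Samhd1, which breaks down deoxynucleotides, stood at 68.2 and 94.6 CPM in adult libraries and 39.9 and 34.3 CPM in pup libraries, with a log2 fold change of 1.13 ± 0.46 (edgeR adjusted p = 0.340). Cmpk1, a nucleoside monophosphate kinase, was at 124 and 94.7 CPM in adults against 31.2 and 75.8 CPM in pups. Of 8 chromatin assembly genes, Asf1b and Chaf1b, which place histones on new DNA, stood at 0.92 and 1.22 CPM in adults against 9.31 and 13.8 CPM in pups and at 0.15 and 5.69 CPM in adults against 10.5 and 28.6 CPM in pups. For Chaf1b, background would give 65.7 of 97 counts in pup replicate 1, and at 4.58 CPM without them that library lay below adult replicate 2. Slbp, the histone mRNA binding protein, was at 59.2 and 67.5 CPM in adults against 87.1 and 92.9 CPM in pups, and Tonsl, a fork repair factor, at 160 and 174 CPM in adults against 50.1 and 113 CPM in pups.

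Of 14 E2F and pocket protein genes, E2f2, an activator like E2f1, had 0 counts in both adults, against 103 and 109 in pup libraries. With background taken off, its bound was 45.6-fold lower in adult over both pups and 33.5-fold without pup replicate 2. E2f7, a repressor made in S phase, stood at 0 and 1.94 CPM in adult libraries and 20.7 and 5.15 CPM in pup libraries, with 127 of its 191 counts in pup replicate 1 expected from background. Rbl2, a pocket protein of resting cells, stood at 54.3 and 69.0 CPM in adult libraries and 49.8 and 41.7 CPM in pup libraries (log2 fold change 0.43 ± 0.46), and Tfdp2, an E2F partner, at 71.5 and 49.9 CPM in adults against 104 and 53.5 CPM in pups. None of these 4 passed the edgeR test, and DESeq2 called E2f2.

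**Figure D5:**
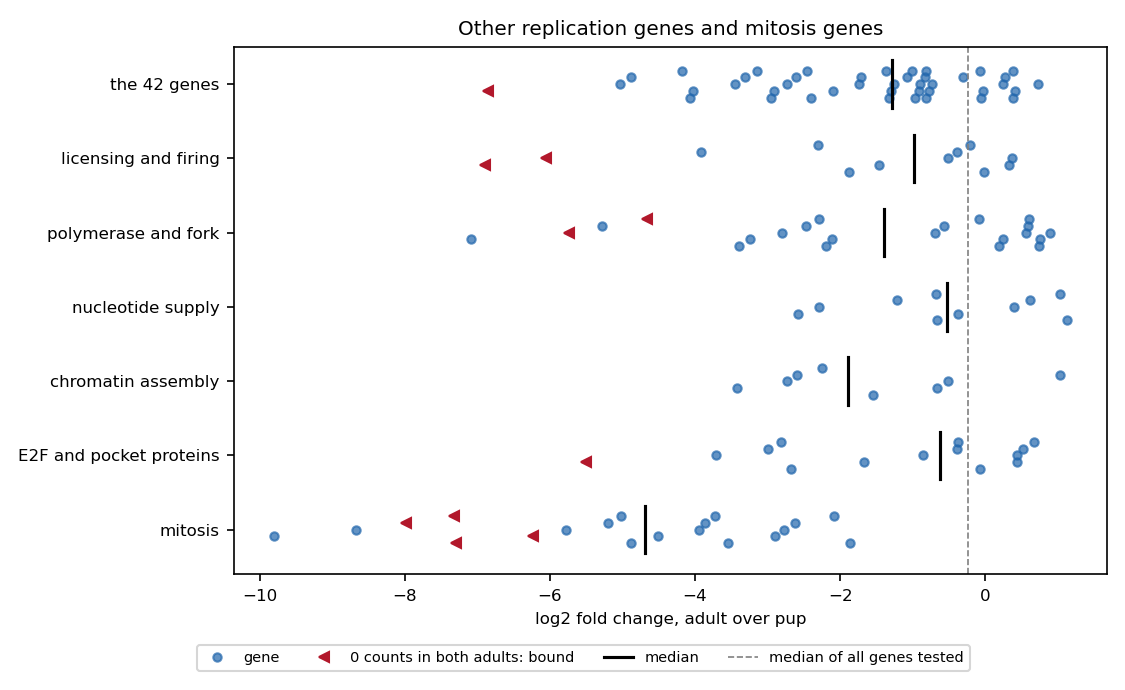
Log2 fold change of adult over pup for the 42 replication genes, 5 lists of other replication genes and 20 mitosis genes; points are genes, red triangles are bounds for genes with 0 counts in both adults, bars are medians and the dashed line is the median of all genes tested. The mitosis list has the lowest median (-4.69) and the 42 genes reach from below -6 to 0.73.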

How the data were processed

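Counts of reads per Ensembl gene were used as deposited by the authors, 1 file per library, raw and not normalized. The submitters' processing notes name cutadapt 1.18, STAR 2.5.2a, HTSeq 0.11.0, R 3.5.1, DESeq2 1.20.0 and GRCm38; the counting options, annotation used and strandedness were not given in the sources used here. Per the labels' protocols, libraries were made with SMART-Seq HT from 1 ng of RNA each, which involves PCR. Without strand, reads from overlapping genes cannot be told apart: 9 of the 42 genes share over 10% of their exon length with another gene. HTSeq's tallies of unassigned reads (31.5% to 32.9% of reads, 84.4% in pup replicate 1) were left out. The 8 value columns of 2 series-wide tables are named by number only and were not mapped to samples, and these tables were not analysed.

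Of 53465 genes, 53360 matched GENCODE vM21 (GRCm38), from which names, coordinates and exon lengths were taken. Counts were tested in R 4.3.3 with edgeR 4.0.16's quasi-likelihood test (TMM, filterByExpr with minimum count 10 and total 15, age as the only term, Benjamini-Hochberg adjusted p under 0.05), leaving 16320 genes (common biological coefficient of variation 0.895). Log2 fold changes are adult over pup. Their SE was derived from edgeR's quasi-likelihood F statistic, which draws on the dispersion of all genes tested. It is not the spread between the 2 libraries of an age alone. DESeq2 1.42.0 and limma-voom 3.58.1 were alternatives. The scripts were tested on simulated data. Expected background in pup replicate 1 is its rate per kb over 1134 olfactory receptor genes times exon length, at 0.5 of the rate on X and Y. Members, lists and tests were chosen with earlier results of these data known. All 42 genes are described; from each other list the 2 genes of highest mean CPM and the 2 of largest fold change were named.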

Additional observations from a re-analysis of the deposited data

How the results depend on the processing

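The median log2 fold change of the 42 genes stayed between -1.63 and -0.93 in all 14 alternatives, the ends being the fits without adult replicate 2 and without pup replicate 2. Of these alternatives, the adjusted p of 0.01 reuses the main fit, so its median could not differ. Scaling by library totals, by DESeq2 size factors or by upper-quartile factors shifted the median of all genes by -0.38, -0.07 and -0.18, and 0 genes were then called. Over all genes, edgeR called 515 with no filter beyond 1 count (45490 tested), 15 with 10 counts asked of every library of an age, 17 with the background of pup replicate 1 subtracted, and DESeq2 called 1472; leaving out 1 library gave 0 to 980. Of the 42, 2 were called with no filter and 7 by DESeq2, and 0 to 8 when 1 library was left out. With the replicate number as a block, edgeR called 0 genes (787 higher and 866 lower at an unadjusted p under 0.05). The labels do not say that replicate numbers pair libraries, so they were not taken as pairs. Deviations of same-numbered libraries had a correlation of -0.098 over all genes tested, and pairing cannot be judged from this 1 value. Of the 42 genes, 29 were higher in adult replicate 2 and 33 in pup replicate 2, with 12 and 9 the other way. Among all genes tested, 8552 were higher in adult replicate 2 and 7814 in pup replicate 2, with 7182 and 8496 the other way. Fibroblast markers were higher in replicate 2 for 8 of 8 at both ages. Endothelial markers were so for 6 of 6 in adults and 0 of 6 in pups. Some log2 fold changes changed sign, those of Fen1, Rpa3, Mcm3 and Rfc4 from values of -1.01 to -0.82, and the cause was not tested. They turned to 0.062 for Mcm2, 0.073 for Orc2 and 0.057 for Rfc2 with no filter, 0.063 for Mcm2 with the block, 0.10 for Mcm2 and 0.018 for Fen1 with background subtracted, and -0.029 for Rpa1 and -0.057 for Dnmt1 with library totals. When 1 library was left out, values ran from -0.46 to 0.59 for Mcm2, -1.65 to 1.28 for Mcm3, -1.62 to 0.32 for Gmnn, -0.26 to 1.06 for Gins4, -0.36 to 2.23 for Rfc5, -0.36 to 0.14 for Orc2, -0.28 to 0.19 for Rfc2, -1.42 to 0.23 for Rfc4, -0.16 to 0.80 for Rpa1, -1.67 to 0.80 for Rpa3, -0.41 to 0.0093 for Mcmbp and -0.78 to 0.18 for Tfdp2. Bounds for 8 genes with no adult count were also taken without each pup library, an alternative chosen after seeing the data, and those of Exo1, Dna2 and Cenpf moved by over 1.5 times. Without pup replicate 1 the bounds fell to 109-fold for Mcm10, 101-fold for Ticrr, 52.8-fold for Cdc7 and 152-fold for Kif11. That of E2f2 fell to 33.5-fold without pup replicate 2. All bounds take pup counts as measured and cover counting error in adults only. At 7289792 to 21490686 gene counts per library, values of genes with few counts are the least precise, and that of Orc1 rested on pup replicate 1.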
